A study of Mus musculus with 8 samples.

Results

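The comparison described here is that of lipopolysaccharide (LPS) alone with control in iBMDM cells, a line of immortalized macrophages of mouse that the labels give as wild type. It takes 4 of the 8 libraries of the study, chosen by their labels alone: 2 control libraries and 2 LPS libraries. Both groups were first given DMSO, the solvent of the drug disulfiram, for 0.5 h. The control cells then received water and the LPS cells 1 μg/ml LPS for 4 h. The differences between these groups are thus between water and LPS on top of the same solvent. The other 4 libraries, in which 5 μM disulfiram took the place of DMSO, entered the statistical fit and the mean levels behind the expression bins. They are otherwise used only to test whether the LPS response differed with the drug. The title of the series gives its question as whether disulfiram blocks TLR4 signalling through MD-2, and the LPS response without the drug is the reference for that question. Whether samples 1 and 2 of a group were grown separately is not said in the labels, so a p-value here reflects no more than how far such samples lie apart, and that distance may be technical.

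LPS is a component of the outer membrane of Gram-negative bacteria. The protein CD14 hands it to MD-2, which the gene Ly96 encodes, and MD-2 sits on the receptor TLR4. At the cell surface TLR4 signals through the adaptor MyD88 to the kinases IRAK and TAK1 and to the transcription factor NF-kB. From endosomes it signals through the adaptor TRIF to the kinase TBK1 and the factor IRF3, which switches on interferon beta. Secreted interferon beta then acts back on the cells through STAT factors and IRF9, which bind the interferon-stimulated response element (ISRE) in promoters. NF-kB also switches on its own inhibitors, such as IkB alpha, the product of Nfkbia.

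The promoters of 4 genes are shown because they carry these different kinds of sites and because each gene rose many-fold. Cxcl10 encodes a chemokine that attracts T cells, Nfkbia the inhibitor IkB alpha, Ifit1 an interferon-induced protein that binds viral RNA, and Il6 the cytokine interleukin 6. Each line gives the 250 bases before the start of the gene, 5′ to 3′ on the strand of the gene, from RefSeq on GRCm38.p6. Capitals mark every match, on either strand, of 3 motifs, namely NF-kB (GGG, any 5 bases, CC), ISRE (GAAA, any 2 bases, GAAA) and AP-1 (TGANTCA). The windows are chr5:92348890-92349139 on the minus strand for Cxcl10, chr12:55492648-55492897 on the minus strand for Nfkbia, chr19:34640639-34640888 on the plus strand for Ifit1 and chr5:30012864-30013113 on the plus strand for Il6.
Cxcl10: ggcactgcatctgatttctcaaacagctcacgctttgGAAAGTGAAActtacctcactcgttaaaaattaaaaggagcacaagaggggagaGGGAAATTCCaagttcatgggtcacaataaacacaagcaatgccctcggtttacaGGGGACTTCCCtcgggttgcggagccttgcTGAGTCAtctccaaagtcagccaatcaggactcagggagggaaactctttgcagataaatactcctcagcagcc
Nfkbia: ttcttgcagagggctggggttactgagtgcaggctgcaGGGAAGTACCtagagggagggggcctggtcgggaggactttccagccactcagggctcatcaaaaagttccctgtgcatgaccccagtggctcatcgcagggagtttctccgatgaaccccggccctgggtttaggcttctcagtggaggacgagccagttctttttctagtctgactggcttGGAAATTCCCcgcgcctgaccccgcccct
Ifit1: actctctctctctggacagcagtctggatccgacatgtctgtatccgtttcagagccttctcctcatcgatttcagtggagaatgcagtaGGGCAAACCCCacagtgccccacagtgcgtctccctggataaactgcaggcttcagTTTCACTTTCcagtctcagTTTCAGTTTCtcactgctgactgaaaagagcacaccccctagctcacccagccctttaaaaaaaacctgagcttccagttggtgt
Il6: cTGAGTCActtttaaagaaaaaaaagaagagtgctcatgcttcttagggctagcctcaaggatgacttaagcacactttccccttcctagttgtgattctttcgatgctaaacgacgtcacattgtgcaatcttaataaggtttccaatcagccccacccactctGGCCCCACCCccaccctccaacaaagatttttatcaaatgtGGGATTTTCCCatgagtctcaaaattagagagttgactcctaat
Cxcl10 holds an ISRE match that begins at -213, NF-kB matches at -159 and -104, and an AP-1 match at -74, counted back from the start of the gene. Nfkbia holds NF-kB matches at -212 and -29 and no ISRE match. Ifit1 holds ISRE matches at -104 and -85 and an NF-kB match at -160. Il6 holds NF-kB matches at -85 and -44 and an AP-1 match at -249, and no ISRE match. The promoters of Tnf and Il12b, which also rose many-fold, were searched in the same way and are not printed. Tnf held 1 match, of the NF-kB motif at -194, and Il12b held 0 matches of the 3 motifs. A match is a description of the letters and does not show that a factor bound there.

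The libraries were alike in depth, with 17822041 and 21177025 counts for control and 21117680 and 21357810 for LPS. Between 19779 and 20324 genes had at least 1 count in a library. Mitochondrial genes took 1.91% to 1.96% of counts in the control libraries and 1.66% to 1.81% in the LPS libraries. Of the 10 macrophage markers 9 lay above 1 CPM (the count of a gene relative to the size of its library) in all 4 libraries, and Mertk, a receptor for dying cells, lay at 1.796 and 1.936 CPM in control and 0.521 and 0.983 CPM with LPS (adjusted p = 0.0572). The summed level of the 10 was 2716 to 2757 CPM in control and 3083 to 3193 CPM with LPS. The neutrophil markers summed to at most 0.189 CPM in control and 0.663 CPM with LPS, with Ly6g, S100a8, S100a9, Ngp, Cxcr2 and Retnlg at 0. All 6 mast cell markers were at 0. The T, B and NK cell markers summed to at most 1.35 CPM in any library, with Cd3e, Cd3g, Cd8a and Ncr1 among those at 0. The 9 dendritic cell markers summed to 13.8 to 15.3 CPM in control and 6.3 to 8.15 CPM with LPS, with Ccr7 and Cd209a at 0, and most of that sum was Batf3. The fibroblast markers (Dcn at 0) summed to 1.01 to 1.61 CPM and 2.27 to 2.34 CPM, and the epithelial and endothelial markers (Krt8, Krt18 and Cdh1 at 0) to 8.83 to 9.15 CPM and 12.6 to 13.9 CPM. Most of the latter sum was the endothelial marker Kdr, at 7.35 and 6.52 CPM in control and 10.1 and 11.1 CPM with LPS. Cdh5, also endothelial, lay above 1 CPM in all 4 libraries. In such bulk RNA a change in the number of cells of a kind and a change in the RNA of each cell cannot be told apart.

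LPS changed 29.0% of the genes tested in these macrophages, and the large changes were mostly rises. Of the 16304 genes tested, 2485 rose (15.2%) and 2246 fell (13.8%) at an adjusted p under 0.05. Rises of at least 4-fold were seen in 441 genes and falls of at least 4-fold in 134. At 16-fold or more the counts were 123 up and 14 down. A stricter test, which asks whether a change is larger than 2-fold, called 531 genes up (3.26%) and 181 down (1.11%). In each of the 4731 called genes both LPS libraries lay on the same side of both control libraries. Such separation was also found in 34.2% (LPS higher) and 31.3% (LPS lower) of all genes tested, so it adds little by itself. The 441 genes that rose at least 4-fold made up 0.564% and 0.588% of the counts of the control libraries and 4.66% and 4.65% of those of the LPS libraries. Genes that fell together took 15% and 15.3% of the control libraries and 9.33% and 9.39% of the LPS libraries. Without control replicate 2 the number of genes down was 1446, and without LPS replicate 2 it was 1429. The count tested as more than 2-fold down was 120 without LPS replicate 2 and 98 with DESeq2. Scaling by library size alone, without the correction for composition, moved the median change over all genes (log2) from 0.017 to -0.126 and gave 1614 genes up and 3774 down, so that 30% of calls were rises in place of 52.5%. Directions given below for gene groups are relative to the first scaling, and the second is given where it changes the picture. The share of a list's members called, given beside its counts, is to be set against the 29.0% called and the median of 0.017 over all genes tested.

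**Figure D1:**
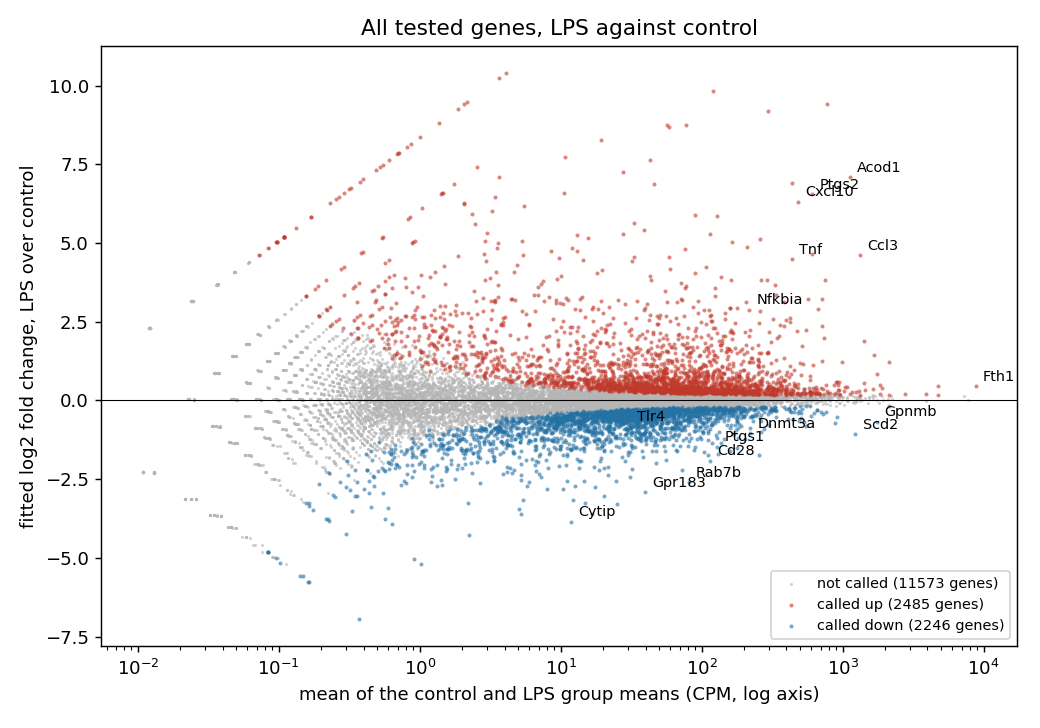
Response of all 16304 genes to LPS. Each point is a gene, with its mean level in CPM on a log axis against its log2 fold change, LPS over control; the 2485 genes called up are red, the 2246 called down blue and the others grey. The largest changes lie above the zero line, where 123 genes rose at least 16-fold against 14 that fell as much.

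The share of genes called up was larger in bins of higher expression. The 5 equal bins were made by mean level over all 8 libraries, so a gene's own rise lifts its mean. From the lowest to the highest bin 4.78%, 9.51%, 12.9%, 19% and 30% of genes rose, while 2.39%, 11.8%, 21.6%, 20.3% and 12.8% fell. Tested as over 2-fold, 57, 118, 102, 105 and 149 genes rose and 7, 51, 67, 31 and 25 fell, without a steady increase. The highest bin held genes of at least 72 CPM and the lowest those under 1.27 CPM. Counts are most precise in the highest bin, and its part in the trend was not tested. At the other end, 49 genes went from under 1 CPM in control to at least 5 CPM with LPS and 2 genes went the opposite way. Among called genes 38 had no counts in either control library and 10 had none in either LPS library.

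Largest in absolute terms were changes in ferritin, chemokines and itaconate synthesis. Fth1, the heavy chain of the iron store ferritin, lay at 7570 and 7288 CPM in control and at 10440 and 9967 CPM with LPS. That is a rise of only 1.37-fold, but it was the largest gain in CPM of any gene called. Acod1, whose enzyme makes the metabolite itaconate, went from 15.2 and 17.7 CPM to 2273 and 2217 CPM, 136-fold. Ccl3, a chemokine, went from 108.5 and 99.2 CPM to 2486 and 2588 CPM, 24.4-fold. Both LPS libraries lay far above both control libraries for these 2 genes. Rnf213, which encodes a very large ubiquitin ligase, rose 3.73-fold from 541 and 655 CPM to 2269 and 2198 CPM. The predicted gene Gm12715 rose 2.31-fold, from 1291 and 1275 CPM to 3094 and 2830 CPM. Fth1 and Gm12715 may share reads with near-identical copies, since the handling of such reads is not given in the sources used here. The largest losses were those of Scd2, a fatty acid desaturase, from 1640 and 1706 CPM to 798 and 782 CPM, and of Gpnmb, a membrane glycoprotein of lysosomes, from 2204 and 2138 CPM to 1355 and 1369 CPM. Lrp1, an endocytic receptor, fell to 0.612 times, Laptm5, a lysosomal membrane protein, to 0.688 times and BC005537 to 0.566 times the control level.

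The receptor complex itself moved in both directions. Tlr4 lay at 38.3 and 41.2 CPM in control and at 24.8 and 20.1 CPM with LPS. It fell to 0.564 times the control level (log2 fold change -0.83, SE 0.11, adjusted p = 4.7e-05). Ly96, for the LPS-binding partner MD-2, lay at 2.95 and 2.4 CPM in control and 2.55 and 3.25 CPM with LPS, so that the groups overlapped (log2 fold change 0.13, SE 0.23, adjusted p = 0.744). Cd14, for the protein that delivers LPS, went from 40.8 and 40.5 CPM to 324 and 306 CPM, 7.74-fold. Cd180, a homologue of TLR4 on the cell surface, went the other way, from 133.5 and 142.9 CPM to 77.3 and 81.7 CPM. Lyn, a kinase of the Src family, rose 2.49-fold from 145 and 142 CPM to 352 and 362 CPM. Of the 12 tested members of the list of LPS sensing at the membrane, 4 rose and 5 fell, 75% called against 29.0% of all genes, with a median of 0.01. The counts were 2 and 6 under scaling by library size, and 2 and 3 without control replicate 2 or without LPS replicate 1. Lbp and Ly86, also on that list, had too few counts to be tested.

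Downstream of the receptor the changes were mostly rises. Of 31 adaptors, kinases and E3 ligases, 16 rose and 2 fell (13 and 5 by library size; 0 fell without control replicate 2 or without LPS replicate 1), with 58.1% called and a median log2 fold change of 0.28. Traf1, a signalling adaptor for receptors of the TNF family, went from 3.26 and 2.75 CPM to 184 and 168 CPM, 58.8-fold. Irak3, an IRAK that restrains the MyD88 pathway, went from 12.4 and 13.6 CPM to 84.6 and 82 CPM, 6.39-fold. Ikbke, a kinase related to TBK1, rose 8.78-fold, Map3k8, the kinase that feeds the ERK pathway, 4.66-fold and Irak2, a kinase of the MyD88 complex, 4.61-fold. Of the 5 adaptors that bind the receptors, Myd88 rose 1.66-fold and Ticam1, which encodes TRIF, 2.04-fold. Ticam2, the adaptor that links TRIF to TLR4, fell to 0.677 times (adjusted p = 0.04), a call that was lost without control replicate 1, control replicate 2 or LPS replicate 1. Tirap (log2 fold change 0.18) and Sarm1 (-0.80) were not called.

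Other sensors of microbes rose more often than they fell, 15 against 5 of 26, with 76.9% called and a median of 0.60. Clec4e, the receptor Mincle for fungal and mycobacterial glycolipids, went from 139.9 and 135.2 CPM to 1269 and 1307 CPM, 9.36-fold. Nod2, a cytosolic sensor of bacterial cell wall fragments, went from 10.9 and 12.5 CPM to 103 and 99.3 CPM. Ifih1, a sensor of viral RNA also called MDA5, rose 5.71-fold. Among the Toll-like receptors, Tlr2 for lipoproteins rose 3.09-fold and Tlr3 for double-stranded RNA 3.66-fold. Tlr13, which senses bacterial ribosomal RNA, fell from 58.6 and 57.4 CPM to 22.9 and 21.4 CPM. Tlr5, the receptor for flagellin, fell to 0.163 times its control level, but its mean lay under 5 CPM in both groups. The Toll-like receptors thus moved in opposite directions.

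All 11 tested NF-kB subunits and IkB proteins rose, also when any 1 of the 4 libraries was left out, with a median of 1.44. Nfkbiz, an atypical IkB protein of the nucleus, went from 10.4 and 9.07 CPM to 321 and 314 CPM, 32.8-fold. Nfkbia went from 52.6 and 51.7 CPM to 403 and 363 CPM (7.34-fold, log2 fold change 2.88, SE 0.10, adjusted p = 1.61e-11). Bcl3, another nuclear IkB protein, rose 6.11-fold. The subunits were ordered Nfkb1 (3.92-fold), Nfkb2 (3.42-fold), Relb (2.72-fold), Rel (2.3-fold) and Rela (1.32-fold). The other IkB genes, Nfkbie (1.99-fold), Nfkbib (1.94-fold) and Nfkbid (1.85-fold), lay between Rel and Rela, so inhibitors were found both at the top and in the lower part of the list.

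Genes known to restrain the response rose too. Of 18 ubiquitin-editing genes 12 rose and 0 fell (2 fell by library size and 2 in a fit of the 4 libraries alone), with 66.7% called and a median of 0.92. Tnfaip3, for the deubiquitinase A20, went from 14.7 and 13.3 CPM to 125 and 116 CPM, 8.65-fold. Peli1, a ubiquitin ligase of the IRAK complex, rose 6.6-fold, and Usp18, which removes the interferon-induced modifier ISG15, rose 5.92-fold. Among 20 factors of mRNA decay 9 rose and 3 fell, with 60% called and a median of 0.22 (8 and 5 by library size, 5 fell in a fit of the 4 libraries alone). Zc3h12a, the endonuclease Regnase-1 that cuts cytokine mRNA, went from 11.5 and 11.3 CPM to 143.1 and 143.0 CPM, 12.5-fold. Zfp36, for tristetraprolin, which marks AU-rich mRNA for decay, went from 33.6 and 37 CPM to 202 and 201 CPM, 5.71-fold. Its relative Zfp36l2 fell instead, from 185 and 208 CPM to 72.7 and 81.6 CPM, and the decay factor Tob1 fell to 0.369 times the control level. Both LPS libraries were below both control libraries for these 2 genes.

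Feedback on cytokine receptors was uneven. Socs3, which blocks signalling by receptors of the IL-6 family, went from 3.98 and 4.62 CPM to 264 and 242 CPM, 58.5-fold. Il1rn, the antagonist of the IL-1 receptor, went from 37 and 40.2 CPM to 535 and 549.5 CPM, 14-fold. Il10, for the anti-inflammatory cytokine, lay at 0.155 and 0.262 CPM in control, which are 3 and 6 counts, and at 5.35 and 5.64 CPM with LPS. Inpp5d, the lipid phosphatase SHIP1, fell to 0.542 times its level, from 235.5 and 238 CPM to 127.9 and 128.9 CPM. In that list of 20 genes, 8 rose and 4 fell (6 and 6 by library size), with 60% called and a median of 0.27. Of 17 MAP kinase phosphatases and Sprouty genes, 8 rose and 1 fell, with 52.9% called and a median of 0.41 (7 and 2 by library size). Dusp8 rose 12.8-fold, Dusp16 5.42-fold and Dusp5 3.55-fold, while Dusp1, the founding MAP kinase phosphatase, did not pass the test at 4 h (log2 fold change 0.40, adjusted p = 0.0873).

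Secreted signals were among the genes with the largest fold changes. Of 37 cytokine and growth factor ligands 26 rose and 6 fell, with 86.5% called against 29.0% of all genes and a median of 2.23, or 1.78 where genes without control counts are set to their lower bound. Tnf went from 37 and 38.1 CPM to 833 and 849.9 CPM (22.4-fold, log2 fold change 4.49, SE 0.12, adjusted p = 6.75e-13). Il1b, the cytokine matured by inflammasomes, went from 0.31 and 1.61 CPM to 608 and 576 CPM. Il6 lay at 0 and 0.654 CPM in control and at 151 and 157.5 CPM with LPS. The 2 control libraries differed for both genes and also for Csf3, the growth factor of neutrophils (0.104 and 0.392 CPM against 243 and 241 CPM). The log2 fold change of Il1b was 9.18 with both control libraries, 8.51 without replicate 1 and 10.86 without replicate 2. For Il6 these values were 8.74, 7.87 and 14.60, the last with no control counts left, and for Csf3 9.83, 9.25 and 11.10. Lif, a cytokine of the IL-6 family, behaved the opposite way (8.28, 9.61 and 7.50). Il1a, Nos2, Lcn2 and Cxcl2, also among the 10 largest rises of genes of at least 5 CPM, likewise had a higher control level in replicate 2. Lif alone of the 10 had a lower one. These folds are therefore large but not precise, and most of them shift the same way with the choice of control library. Il12b, the subunit shared by IL-12 and IL-23, had no control counts and 8.2 and 8.27 CPM with LPS, at least 116-fold higher against a floor of 3 counts over the group. Csf2, for GM-CSF, was at least 104-fold higher by the same floor (6.73 and 7.99 CPM with LPS).

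Other cytokines were measured with more control counts. Osm, for oncostatin M, went from 6.62 and 7.37 CPM to 65.3 and 60.6 CPM, 8.97-fold. Csf1, the growth factor of macrophages, rose 3.44-fold and Il18, an inflammasome substrate, 2.77-fold. Tgfb1, a suppressive factor, rose 1.57-fold. Vegfa, the factor of blood vessel growth, fell to 0.687 times and Tnfsf12, a TNF relative also called TWEAK, to 0.484 times the control level. The share of all counts in cytokine ligands was 0.118% and 0.114% in control and 0.356% and 0.359% with LPS. Ifnb1, for interferon beta, was too low to be tested, with 0 and 0 counts in control and 16 and 8 with LPS.

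Chemokines rose almost as a block, 16 of 17 tested against 15.2% of all genes, with a median of 4.65, or 4.61 at the bound. Their share of all counts went from 0.0622% and 0.0611% to 0.892% and 0.906%. Cxcl2, which attracts neutrophils, went from 1.97 and 2.53 CPM to 1532 and 1577 CPM, 684-fold. Cxcl10 went from 11.7 and 12.2 CPM to 1009 and 885 CPM (79.2-fold, log2 fold change 6.31, SE 0.14, adjusted p = 1.47e-13), and its promoter, shown above, holds both ISRE and NF-kB matches. Ccl4 went from 47.2 and 46.5 CPM to 1146 and 1208 CPM, 25.1-fold, much as its neighbour Ccl3 did. The monocyte attractants Ccl2 and Ccl7 rose 14.3-fold and 29.2-fold. Ccl5, which attracts T cells, went from 4.35 and 5.97 CPM to 146 and 148 CPM, 28.2-fold. Ccl20, Cxcl3 and Ccl22 had no control counts and were at least 61.1-fold, 38.9-fold and 20.1-fold higher. Ccl6 alone of the 17 was not called (log2 fold change 0.47, adjusted p = 0.377). Cxcl1, a close relative of Cxcl2, was too low to be tested, with 1 and 0 counts in control and 1 and 10 with LPS, and so was Cxcl11, with 0 and 0 counts and 10 and 12.

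Of 35 cytokine and growth factor receptors 13 rose and 9 fell, 62.9% called, with a median of 0.10. Of 9 chemokine receptors 3 rose and 2 fell (2 and 2 by library size), 55.6% called, with a median of 0.00. Tnfrsf1b, for TNF receptor 2, went from 76.7 and 81 CPM to 694 and 696 CPM, 8.81-fold. Ccrl2, a receptor that binds chemerin without signalling, rose 28.6-fold, and Il10ra, for the IL-10 receptor, 2.56-fold. Il6ra, for the IL-6 receptor, fell from 50.2 and 54 CPM to 22.1 and 21.1 CPM. Il7r, for the IL-7 receptor, fell to 0.326 times, Csf2rb2 to 0.474 times and Tgfbr1, a receptor of TGF-beta, to 0.485 times the control level. Csf1r, the receptor of CSF-1 and a marker of macrophages, lay at 804 and 826 CPM in control and 833 and 775 CPM with LPS. The groups thus overlapped under the first scaling (log2 fold change -0.02, adjusted p = 0.894). By library size alone Csf1r lay at 872 and 895 CPM in control and 803 and 759 CPM with LPS, without overlap.

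**Figure D2:**
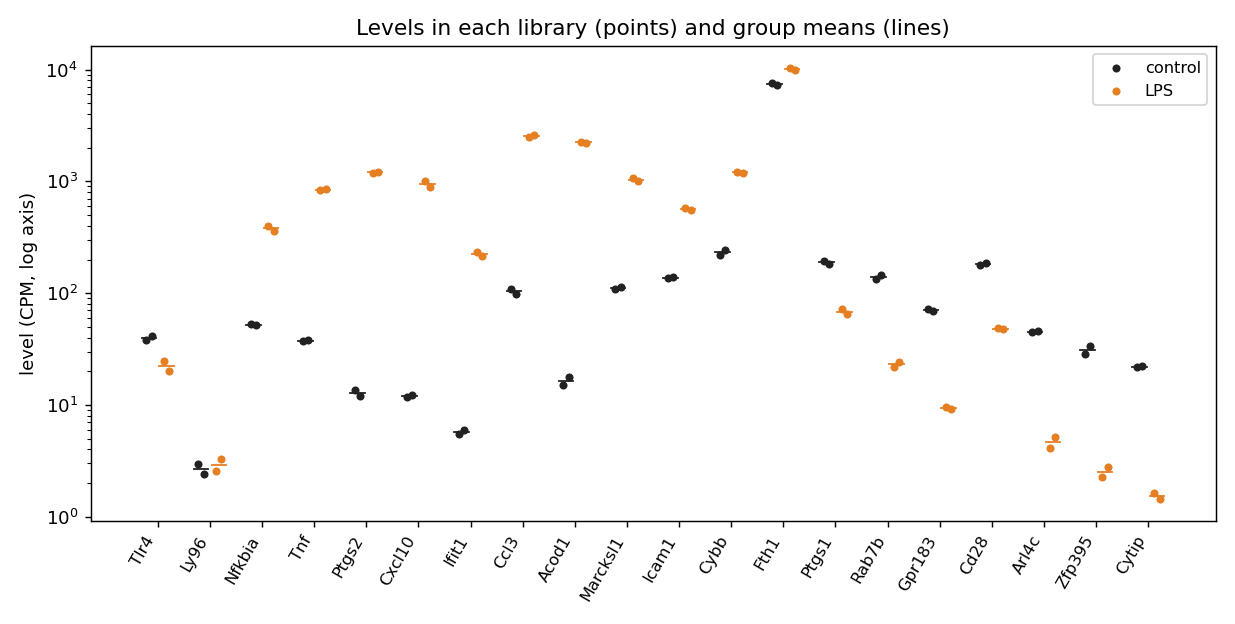
Level of 20 genes in each of the 4 libraries, in CPM on a log axis. Points are libraries and short lines group means, black for control and orange for LPS. Acod1, Ptgs2, Cxcl10 and Ifit1 are separated widely, Fth1 by little, Ly96 is the gene whose libraries overlap, and Tlr4, Ptgs1, Rab7b, Gpr183, Cd28, Arl4c, Zfp395 and Cytip lie lower with LPS.

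Interferon-stimulated effectors rose almost throughout. Of 42 antiviral genes 39 rose and 0 fell, against 15.2% and 13.8% of all genes, with a median of 1.76. Ifit1 went from 5.48 and 5.93 CPM to 233 and 214 CPM (39-fold, log2 fold change 5.29, SE 0.10, adjusted p = 8.11e-14). Rsad2, for the radical enzyme viperin, went from 13.2 and 15.4 CPM to 524 and 487 CPM, 35.2-fold. Mx2, an antiviral GTPase, rose 23.8-fold and Isg15, a ubiquitin-like modifier, 13.2-fold. The 3 members that did not pass were Ifitm1 (log2 fold change 1.67, adjusted p = 0.159; 2.76 without control replicate 2), Ifi27 (-0.05, adjusted p = 0.725) and Samhd1, which depletes deoxynucleotides (0.12, adjusted p = 0.466). Together the antiviral genes took 0.199% and 0.198% of counts in control and 0.629% and 0.595% with LPS. Zbp1, a sensor of Z-form nucleic acid, was too low to be tested, with 0 and 1 counts against 6 and 10.

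Guanylate-binding proteins and immunity-related GTPases, which attack vacuoles that hold pathogens, rose in 16 of 17 cases, 94.1%, with a median of 2.96. Gbp5 went from 0.362 and 0.349 CPM to 56.8 and 54.1 CPM, 154-fold. Gbp2 went from 1.09 and 1.53 CPM to 66.3 and 64.6 CPM, 49.3-fold, and Irgm1, a GTPase that regulates autophagy, rose 4.96-fold. Gbp8 was not called (log2 fold change -0.25, adjusted p = 0.691). Of the 18 Ifi200 and Schlafen genes, which hold sensors of DNA and regulators of transfer RNA, 16 rose and 0 fell, 88.9% called, with a median of 2.34 (16 and 1 by library size). Slfn4 went from 6 and 4.53 CPM to 85.2 and 77.5 CPM, 15.5-fold, Ifi209 rose 15.3-fold and Ifi211 7.69-fold. Aim2, the DNA sensor of that cluster, was not called (log2 fold change -0.10, adjusted p = 0.402, but -0.26 and 0.0277 by library size). Many of these genes have near-identical copies, so their counts are uncertain as to the copy.

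The factors that carry interferon signals moved in both directions. Of 24 interferon regulatory factors, STATs, kinases and receptors, 10 rose and 5 fell, 62.5% called, with a median of 0.13 (8 and 7 by library size; 1 fell without control replicate 2 or LPS replicate 2, and 2 without LPS replicate 1). Irf7, the amplifier of type I interferon, went from 59.3 and 54.8 CPM to 216 and 204 CPM, 3.68-fold. Stat2 rose 3.83-fold, the kinase Jak2 3.75-fold and Irf1 2.51-fold. Irf3, which is activated by phosphorylation, lay at 43.5 and 43.2 CPM in control and 45.8 and 41.6 CPM with LPS. Its groups overlapped under the first scaling (log2 fold change 0.01, adjusted p = 0.972). Irf2bp2, a partner of the repressor IRF2, fell to 0.417 times the control level.

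Antigen presentation rose in its class I branch, with 20 of 26 genes up and 1 down, 80.8% called, and a median of 0.58. Tap1, of the peptide transporter, went from 38.1 and 37.6 CPM to 128 and 113 CPM, 3.19-fold. Nlrc5, the activator of class I genes, rose 2.83-fold, and Psme2, of the proteasome activator PA28, 2.41-fold. The structural genes moved little, B2m from 505 and 496 CPM to 657 and 655 CPM (1.31-fold) and H2-K1 1.42-fold. Of 27 class II and costimulation genes 14 rose and 5 fell, 70.4% called, with a median of 1.02. Cd40, the receptor for T cell help, went from 18.7 and 19.8 CPM to 239 and 218 CPM, 11.9-fold. Cd69, an early activation antigen, went from 0.88 and 0.697 CPM to 93.4 and 89.1 CPM, 116-fold. Icosl rose 4.14-fold, Cd274, the checkpoint ligand PD-L1, 3.64-fold and Cd80 2.22-fold. Another checkpoint molecule, Vsir, fell from 29.8 and 31.3 CPM to 3.93 and 5.07 CPM, 0.148 times the control level. Havcr2, for TIM-3, fell to 0.588 times and Cd276 to 0.639 times. Checkpoint genes thus included both rises and falls. Cd28, the costimulatory receptor best known from T cells, lay at 178.9 and 186.5 CPM in control and fell to 48.8 and 47.6 CPM with LPS, while the T cell markers Cd3e, Cd3g and Cd8a were at 0.

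Among the enzymes that make effector molecules, single genes changed strongly. Nos2, the inducible nitric oxide synthase, lay at 0.0517 and 0.436 CPM in control and at 114 and 113 CPM with LPS. Its log2 fold change was 8.74, and it was 8.00 without control replicate 1 and 10.93 without control replicate 2. Gch1, the first enzyme of the synthesis of tetrahydrobiopterin, the cofactor of that synthase, went from 61.6 and 58 CPM to 176 and 159 CPM, 2.8-fold. Of 19 genes for nitric oxide, arginine, itaconate and tryptophan enzymes 10 rose and 3 fell, 68.4% called, with a median of 0.44 (0 fell without control replicate 1 or LPS replicate 2, and 1 without control replicate 2). In prostaglandin synthesis the 2 cyclooxygenases moved in opposite directions. Ptgs2, the inducible one, went from 13.7 and 12.1 CPM to 1186 and 1218 CPM (93.3-fold, log2 fold change 6.54, SE 0.10, adjusted p = 7.12e-15). Ptgs1, the constitutive one, went from 195 and 184 CPM to 72.3 and 64.6 CPM, 0.362 times the control level. Hpgds, the haematopoietic prostaglandin D synthase, fell to 0.649 times, from 183 and 189 CPM to 118 and 123 CPM. Over the 18 genes of eicosanoid synthesis 3 rose and 5 fell, 44.4% called, with a median of -0.30. An antisense gene overlaps Ptgs2, and whether the counting used strand is not given in the sources used here.

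Genes of oxidant production, antioxidant defence and iron rose in 20 of 38 cases and fell in 5, 65.8% called, with a median of 0.45 (18 and 9 by library size; 3 fell without control replicate 1 or without LPS replicate 2). Cybb, the catalytic subunit of the phagocyte NADPH oxidase, went from 219.6 and 245.5 CPM to 1215 and 1190 CPM, 5.17-fold. Sod2, the mitochondrial superoxide dismutase, went from 165 and 171 CPM to 784 and 780 CPM, 4.65-fold. Saa3, an acute phase protein, went from 5.54 and 8.76 CPM to 906 and 827.5 CPM, 120-fold. Slc7a11, the cystine importer, rose 9.39-fold. Slc40a1, for the iron exporter ferroportin, fell from 26.4 and 26.5 CPM to 11.2 and 11.3 CPM, while ferritin Fth1 rose as given above.

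Of 44 genes of glycolysis and the TCA cycle 5 rose and 6 fell, which is 25% called against 29.0% of all genes tested, with a median of -0.03 (4 and 22 by library size; 12 fell in a fit of the 4 libraries alone, 2 without control replicate 1 or LPS replicate 2, and 3 without LPS replicate 1). Slc2a6, a glucose transporter of lysosomes, went from 78.6 and 76.3 CPM to 383 and 343 CPM, 4.69-fold. Slc2a1, the glucose transporter GLUT1, rose 1.9-fold and Hk2, hexokinase 2, 1.86-fold. Ldha, lactate dehydrogenase A, lay at 2290 and 2137 CPM in control and 2349 and 2266 CPM with LPS. Pkm, pyruvate kinase, lay at 4049 and 3863 CPM in control and 3989 and 3849 CPM with LPS. The groups overlapped for both genes under the first scaling. Idh1, the cytosolic isocitrate dehydrogenase, fell to 0.715 times and Pdk1, a kinase that inhibits pyruvate dehydrogenase, to 0.727 times. The share of counts in the list was 1.88% and 1.81% in control and 1.72% and 1.69% with LPS. Among 29 sterol and lipid genes 8 rose and 10 fell (6 and 14 by library size), 62.1% called, with a median of -0.12. Fabp4, a fatty acid binding protein, rose 4.43-fold. Abcg1, a cholesterol exporter, fell from 98 and 103.7 CPM to 35.2 and 30.5 CPM, 0.326 times. Cpt1a, which admits fatty acids to mitochondria, fell to 0.408 times and Cyp27a1, which makes an oxysterol, to 0.498 times. Ch25h, the other oxysterol enzyme of that list, was too low to be tested, with 0 and 0 counts in control and 13 and 6 with LPS.

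**Figure D3:**
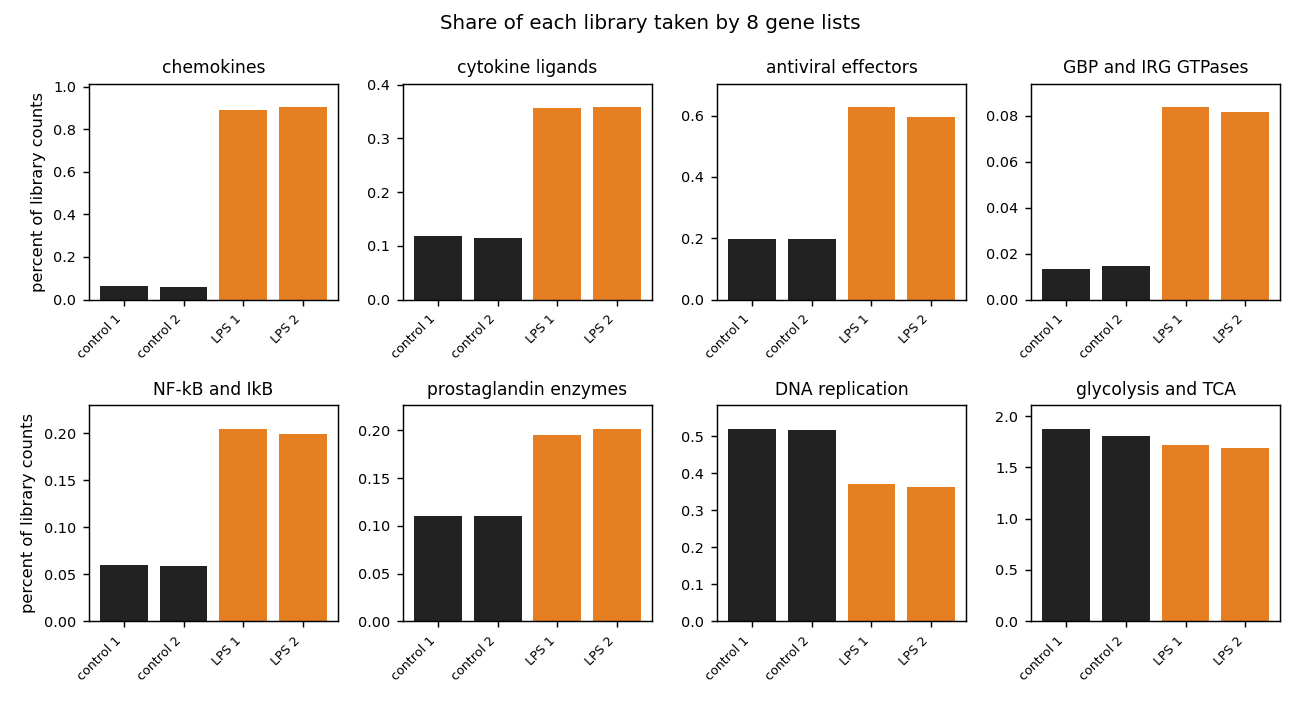
Percent of each library's counts taken by 8 gene lists, bars from 0 with a scale for each list, control libraries in black and LPS libraries in orange. Chemokines show the widest relative gap, from 0.0622% and 0.0611% to 0.892% and 0.906%, and glycolysis and TCA cycle genes the narrowest.

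Phagocytic, scavenger and Fc receptors moved in both directions, with 16 of 33 up and 8 down, 72.7% called, and a median of 0.25 (13 and 13 by library size). Pilra, an inhibitory receptor, went from 14.1 and 14.5 CPM to 136 and 128 CPM, 9.21-fold. Siglece, an inhibitory receptor for sialic acid, rose 7.39-fold, and Fcgr2b, the inhibitory Fc receptor, 4.45-fold, from 61.6 and 59 CPM to 281 and 257 CPM. Trem2, a lipid receptor, fell from 232 and 224 CPM to 112 and 106 CPM, 0.477 times. Gas6, a ligand that bridges dying cells to phagocytes, fell to 0.443 times and Cd33, another Siglec, to 0.567 times. Of 25 complement and coagulation genes 11 rose and 5 fell, 64% called, with a median of 0.20 (10 and 7 by library size; 3 fell without any 1 of the 4 libraries). Plaur, the receptor of urokinase, went from 39.3 and 34.8 CPM to 292 and 272 CPM, 7.61-fold, whereas Plau, urokinase itself, went from 369 and 353 CPM to 189 and 192 CPM, 0.528 times. The receptor and its ligand thus moved in opposite directions. C3, the central complement protein, rose 3.19-fold, Procr, the protein C receptor, 3.35-fold, and C1qa, of the first complement component, fell to 0.514 times.

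Among 24 adhesion genes 8 rose and 7 fell, 62.5% called, with a median of 0.03. Icam1, the integrin ligand, went from 135.6 and 139.2 CPM to 577 and 557 CPM, 4.13-fold. Itga5, of the fibronectin receptor, rose 3.17-fold and Cd44, the hyaluronan receptor, 2.12-fold. Cytip, a partner of the integrin regulator cytohesin, had the largest fall among named genes with a mean of at least 5 CPM in control, from 21.7 and 22.4 CPM to 1.62 and 1.43 CPM (0.0695 times, log2 fold change -3.85, SE 0.23, adjusted p = 5.05e-09). Proteases and matrix genes rose in 17 of 30 cases and fell in 6, 76.7% called, with a median of 1.32 (11 rose where a mean of 5 CPM was required). Mmp13, a collagenase, went from 0.362 and 0.48 CPM to 83.8 and 87.8 CPM, 199-fold. Mmp12, the macrophage elastase, went from 4.24 and 5.23 CPM to 109 and 116 CPM, 23.6-fold, Mmp8 rose 9.52-fold and Mmp9 5.03-fold. Timp2, an inhibitor of these enzymes, fell to 0.438 times. Hyal1, which degrades hyaluronan in lysosomes, went from 21.4 and 22.8 CPM to 2.5 and 2.44 CPM, 0.112 times, and the lysosomal protease Ctsd fell to 0.743 times.

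Falls of G protein-coupled receptors were nearly as frequent as rises, 13 against 15 of 53 (19 against 14 by library size), with 52.8% called and a median of -0.07. Gpr84, a receptor of medium-chain fatty acids, went from 9.16 and 11.3 CPM to 169.2 and 168.6 CPM, 16.5-fold. Hcar2, the niacin receptor, rose by 5.42 on the log2 scale, or 6.19 without control replicate 1, and P2ry2, a nucleotide receptor, rose 2.91-fold. Adora2a, a receptor of adenosine, had no control counts and was at least 52.6-fold higher, and Fpr2, a formyl peptide receptor, at least 15.4-fold higher. For Fpr1, with 0 and 1 counts in control, the ratio was 146 with a 95% counting interval of 25.9 to 5824. Gpr183, the receptor of the oxysterol that Ch25h begins to make, went from 71.6 and 69.1 CPM to 9.58 and 9.13 CPM, 0.133 times. Gpr162 fell to 0.122 times and Lpar5, a lysophosphatidic acid receptor, to 0.282 times. Gpr157 fell by 3.60 on the log2 scale, or by 4.61 without LPS replicate 2.

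Regulators of small GTPases and of the cytoskeleton were counted with the RGS proteins, and 21 of 49 rose and 11 fell, 65.3% called, with a median of 0.02. Marcksl1, a membrane-bound actin regulator, went from 110 and 113 CPM to 1062 and 1006 CPM, 9.28-fold, and its relative Marcks rose 6.52-fold. Arhgef3, an activator of RhoA, rose 14.3-fold. Rab7b, a GTPase that directs TLR4 to lysosomes, fell from 133 and 146 CPM to 21.9 and 24.3 CPM, 0.166 times. Arl4c, an ARF-like GTPase, went from 44.9 and 45.5 CPM to 4.08 and 5.16 CPM, 0.102 times. Rgs2 fell to 0.218 times, and Rasgrp3, an activator of Ras and Rap, fell from 157.5 and 158.2 CPM to 50.4 and 50.8 CPM. The list as a whole took 0.259% and 0.266% of counts in control and 0.406% and 0.409% with LPS. Of 41 ion channels and pumps 12 rose and 9 fell (7 and 12 by library size), 51.2% called, with a median of 0.03. The chloride channel Clic4 rose 2.26-fold and the lysosomal channel Mcoln2 2.24-fold, and the potassium channels Kcnk13 and Kcnn4 fell to 0.418 and 0.543 times.

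Transcription factors moved in both directions. Among 32 bZIP and EGR factors 18 rose and 4 fell, 68.8% called, with a median of 0.61, or 0.52 at the bound. Cebpd went from 16.9 and 16.8 CPM to 261 and 255 CPM, 15.3-fold, while Cebpa, its relative in myeloid development, fell to 0.326 times. Maff rose 4.38-fold, Fosl1 3.07-fold and Junb 2.77-fold. The macrophage factor Maf fell to 0.626 times, from 78 and 87.2 CPM to 52.2 and 51.3 CPM. Batf3 fell to 0.446 times. Of 29 KLF factors and nuclear receptors 5 rose and 8 fell, 44.8% called, with a median of -0.15 (4 and 11 by library size). Klf7 rose 4.22-fold, Ppard 2.39-fold and Klf6 2.11-fold, and Klf10 and Klf4 fell to 0.441 and 0.219 times. The mean of Klf4 lay under 5 CPM in both groups. Of 30 lineage factors 14 rose and 9 fell, 76.7% called, with a median of 0.13. Hivep3, a large zinc finger protein that binds kB sites, went from 33 and 41.2 CPM to 248 and 263 CPM, 6.87-fold. Ets2 went from 112 and 120 CPM to 685 and 669 CPM, 5.83-fold, and Id3 and Id1, which block basic helix-loop-helix factors, rose 21.9-fold and 13-fold. Spi1, the master factor of macrophages, rose 1.9-fold and Hif1a 1.67-fold. Tfeb, the driver of lysosome genes, fell from 25 and 24.9 CPM to 4.17 and 4.35 CPM, 0.171 times, whereas Tfec, a member of its family, rose 5.78-fold. Bhlhe40 and Bhlhe41 fell to 0.249 and 0.226 times, Bhlhe40 from 73.9 and 78.9 CPM to 16.9 and 21.2 CPM.

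Chromatin regulators fell more often than they rose, 17 against 9 of 51, with 51% called and a median of -0.14 (23 and 8 by library size; 11 fell without control replicate 2 or without LPS replicate 2). Tet2, which oxidizes methylated cytosine, went from 30.2 and 37 CPM to 174 and 189 CPM, 5.4-fold. Arid5a rose 3.35-fold, and the histone demethylases Kdm6b and Kdm4a 2.72-fold and 2.41-fold. Dnmt3a, a DNA methyltransferase, fell from 293 and 304 CPM to 139 and 149 CPM, 0.482 times. Hdac5 and Hdac9, deacetylases of class IIa, fell to 0.327 and 0.325 times, Hdac5 from 65.2 and 69 CPM to 22.2 and 21.8 CPM. Smarca2, an ATPase of the SWI/SNF complex, fell to 0.476 times.

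Of 50 genes of cell death and survival, which act in either direction, 21 rose and 11 fell, 64% called, with a median of 0.20 (7 fell without control replicate 2 and 6 without LPS replicate 1). Fas, the death receptor, went from 2.33 and 3.31 CPM to 61.7 and 60.7 CPM, 21.4-fold. Phlda1 rose 35.5-fold. Pim1, a survival kinase, went from 22.3 and 23.3 CPM to 229 and 221 CPM, 9.86-fold, and the NF-kB targets Ier3, Cflar, Birc3 and Bcl2l1, which oppose cell death, rose 5.69-fold, 4.09-fold, 3.24-fold and 2.98-fold. Bcl2a1d, one of several near-identical copies, rose 11.3-fold. Sesn1, a stress-induced regulator of growth, fell from 36.9 and 33 CPM to 8.5 and 7.75 CPM. Trp53inp1, a stress-induced nuclear protein, fell to 0.21 times and the death gene Bbc3 to 0.547 times, while Gadd45a, a growth arrest gene, had a log2 fold change of 3.86, or 4.48 when control replicate 2 was left out. Inflammasome genes rose in 8 and fell in 7 of 21 cases, 71.4% called, with a median of 0.10 (5 and 8 by library size; 5 rose without control replicate 1, control replicate 2 or LPS replicate 2, and 4 fell without LPS replicate 2). Nlrp3 went from 49.2 and 47.9 CPM to 620 and 616 CPM, 12.7-fold. Casp4, the caspase that binds LPS in the cytosol, went from 5.85 and 4.14 CPM to 39.5 and 38.6 CPM, 7.88-fold, and Casp1 rose 1.48-fold. P2rx7, the ATP-gated channel upstream of NLRP3, fell to 0.337 times and Nlrp10 to 0.408 times.

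DNA replication genes fell, 29 of 42 against 2 that rose and against 13.8% of all genes that fell, with a median of -0.38 (36 and 0 by library size; 0 rose without LPS replicate 1). Their share of counts went from 0.521% and 0.518% to 0.37% and 0.364%. E2f2, an activator of S phase genes, fell from 49 and 49.3 CPM to 17.4 and 18.1 CPM, 0.361 times, and E2f8, a repressor of the same family, to 0.446 times. Gmnn, the licensing inhibitor geminin, went from 56.8 and 51.7 CPM to 24.9 and 24.5 CPM, and Tk1, thymidine kinase, fell to 0.504 times. Of 40 mitosis genes 3 rose and 10 fell, which is 32.5% called against 29.0% of all genes, with a median of -0.13 (0 and 23 by library size). The number of them down was 6 without control replicate 1 or LPS replicate 2 and 5 without LPS replicate 1, and the number up was 0 or 1 without any 1 library. Cenpf, of the kinetochore, fell to 0.655 times and Nusap1, a spindle protein, to 0.69 times.

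Among 29 microRNA host genes and long noncoding RNAs 9 rose and 1 fell, 34.5% called against 29.0% of all genes, with a median of 0.28. Mir155hg, the host of miR-155, went from 0.517 and 0.785 CPM to 27.6 and 23.1 CPM, 38-fold. Mir22hg rose 2.77-fold and Kcnq1ot1 2.65-fold. Among gene families taken by symbol, 19 of 70 Cd genes rose and 18 fell, 52.9% called, with a median of -0.06. Of 232 solute carriers 41 rose and 47 fell (31 and 81 by library size), 37.9% called, with a median of -0.05. Slc15a3, a transporter of peptides on endosomes, went from 92.6 and 89.8 CPM to 559 and 536 CPM, 6.01-fold, and Slc43a2 fell to 0.338 times and Slc26a11 to 0.104 times. Of 45 Trim genes, many of them antiviral ubiquitin ligases, 14 rose and 10 fell, 53.3% called, with a median of 0.02 (5 fell without control replicate 2, and 6 without either LPS replicate). Trim13 rose 9.09-fold and Trim34a 8.38-fold, and Trim65 fell to 0.368 times. Of 335 zinc finger genes named Zfp 25 rose and 49 fell (13 and 89 by library size), which is 22.1% called against 29.0% of all genes, with a median of -0.10. Without any 1 library, 26 to 32 of them fell and 13 to 18 rose. Zfp395 went from 28.5 and 33.7 CPM to 2.26 and 2.77 CPM, 0.0811 times. Of 85 ribosomal protein genes 10 rose and 0 fell, 11.8% called (0 and 0 by library size, 1 to 3 rose without any 1 library, and 29 in a fit of the 4 libraries alone), so no direction is given for them. Of 7 Tnfaip genes 4 rose and 2 fell, 85.7% called, with Tnfaip2 up 3.62-fold.

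**Figure D4:**
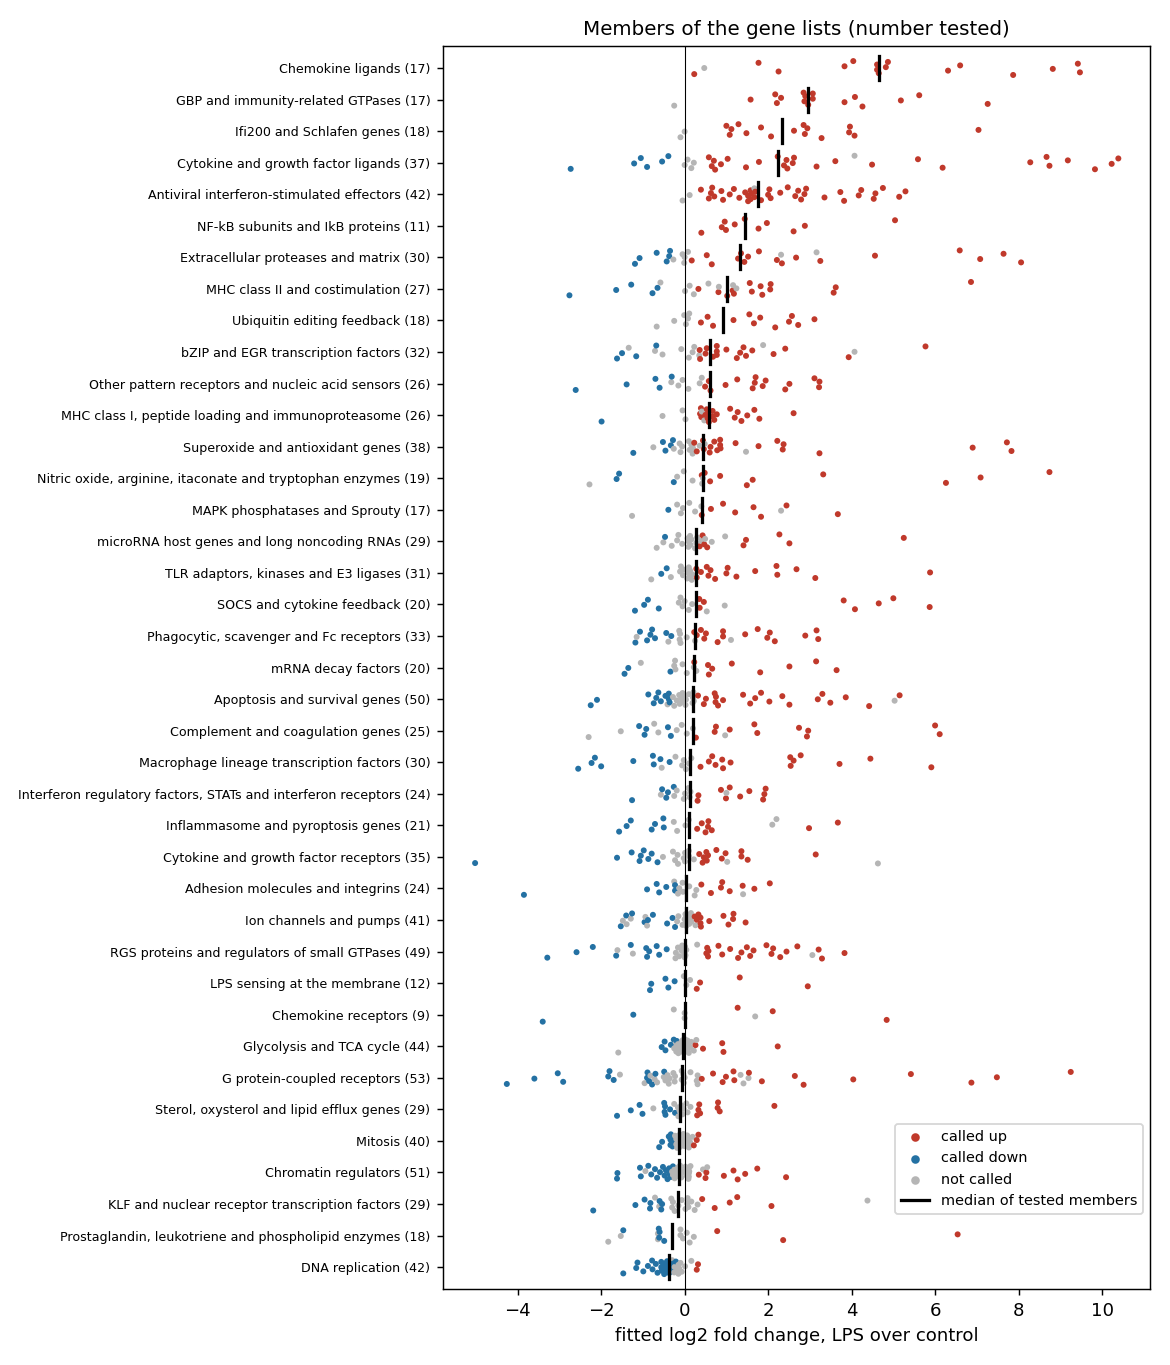
Log2 fold change, LPS over control, of the tested members of 39 gene lists. Each point is a gene, red where called up, blue where called down and grey otherwise, and the black tick is the median of the list. Chemokines stand highest with a median of 4.65, and DNA replication genes lowest with -0.38.

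The same contrast in cells given disulfiram in place of DMSO allowed a test of whether the response itself differed. Of the 11 tested genes fixed for it, 9 responded differently, against 19.7% of all genes tested. Each of the 9 rose with LPS alone, which 15.2% of all genes did. They were also chosen with earlier results of these data known, so their share cannot be compared evenly with that of all genes. The rise of Ifit1 was 5.29 on the log2 scale without the drug and 0.40 with it, and that of Nfkbia was 2.88 and 2.08. Levels in the disulfiram libraries are not given here. A change with the drug in the level before LPS and one in the level after it are thus not told apart. Tlr4 and Ly96 were not called in this test.

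Some of the genes that rose at least 2-fold lay side by side. Of 15810 tested genes placed in order on their chromosomes, 833 rose at least 2-fold, and 179 of these lay in 47 unbroken runs of 3 or more neighbours. The longest run held 8 genes around Gvin1, a giant interferon-inducible GTPase. Runs of 6 were formed by Ifit2, Ifit3, Ifit1bl1, Ifit3b, Ifit1bl2 and Ifit1 (median 4.20), by 6 Ifi200 genes (median 2.84), by 6 genes of the Schlafen cluster (median 2.48) and by 6 genes of the Trim12 and Trim30 cluster (median 2.29). Mmp13, Mmp12, Mmp3, Mmp10 and Mmp8 formed a run with a median of 6.59. Mmp3 had 1 control count and Mmp10 had 2, and their ratios were 121 (95% counting interval 21.3 to 4813) and 153 (41.9 to 1266). Gbp5, Gbp7, Gbp3 and Gbp2 formed another (median 4.35), and so did Ltb, Tnf and Lta (median 2.62). Ccl3 and Ccl4 lay in a run with Wfdc17 (median 4.61), and Fpr1 and Fpr2 in one with Has1, which makes hyaluronan (median 7.48). The latter run of 5 also holds Vmn2r90 and Spaca6. In it Fpr1 had 1 control count and Fpr2 none, so the median of the run is not precise. Neighbours in some of these runs, such as the Ifit and Ifi200 genes, are copies of one another. Shared reads between such copies can add members to a run, and their part was not tested. Other runs reached 3 genes only with predicted loci, such as Irak2 with Gm43963 and Gm43912, and Fcgr2b with Gm38204 and Gm10522. Whether reads of a named gene were also counted at such loci was not tested.

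Promoters of the strongest risers differed in their letters from those of other genes. A single RefSeq promoter was found for 8414 of the tested genes, and each was searched on both strands from 250 bases before to 50 after the start. The ISRE match was in 17.3% of promoters of genes up at least 4-fold (42 of 243), in 5.23% of those up by less, in 2.58% of those not called and in 3.36% of all. The AP-1 match TGANTCA was in 15.6% of the first group and 5.34% of all, and the TATA match TATAAA in 18.9% and 7.75%. The NF-kB match was in 56.4% and 66.5%, a lower share among the strongest risers. A stricter form (GGGA, any 2 bases, TTCC), chosen after seeing that the loose form was in most promoters, was in 4.53% and 1.52%. The SP1 match GGGCGG was in 37.4% and 62.5%. C/EBP (TTGCNNAA) was in 15.2% and 8.32%, GAS (TTCNNNGAA) in 13.6% and 7.06%, PU.1 (GAGGAAGT) in 4.94% and 3.41%, CRE (TGACGTCA) in 1.65% and 3.33%, and the E-box CACGTG in 4.94% and 10.1%. Base composition moved with these shares, since the median GC content was 51.3% in promoters of genes up at least 4-fold and 60.3% in all, and its part was not tested.

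By gene list, the ISRE match was in 8 of 9 promoters of guanylate-binding and immunity-related GTPase genes and in 13 of 27 antiviral promoters. It was in 1 of 23 cytokine promoters, in 1 of 12 chemokine promoters (that of Cxcl10) and in 0 of 6 promoters of NF-kB and IkB genes. In replication and mitosis genes it was in 1 of 29 and 2 of 32. The loose NF-kB match was in 5 of the 6 promoters of NF-kB and IkB genes, among them Nfkbia as printed above. It was also in 66.5% of all promoters searched. By list it was in 20 of 29 replication, 23 of 32 mitosis, 15 of 23 cytokine and 6 of 12 chemokine promoters. For antiviral genes it was in 14 of 27 and for the GTPase genes in 4 of 9. Some matches overlap or share a gene family, so promoters of copied genes are not independent.

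**Figure D5:**
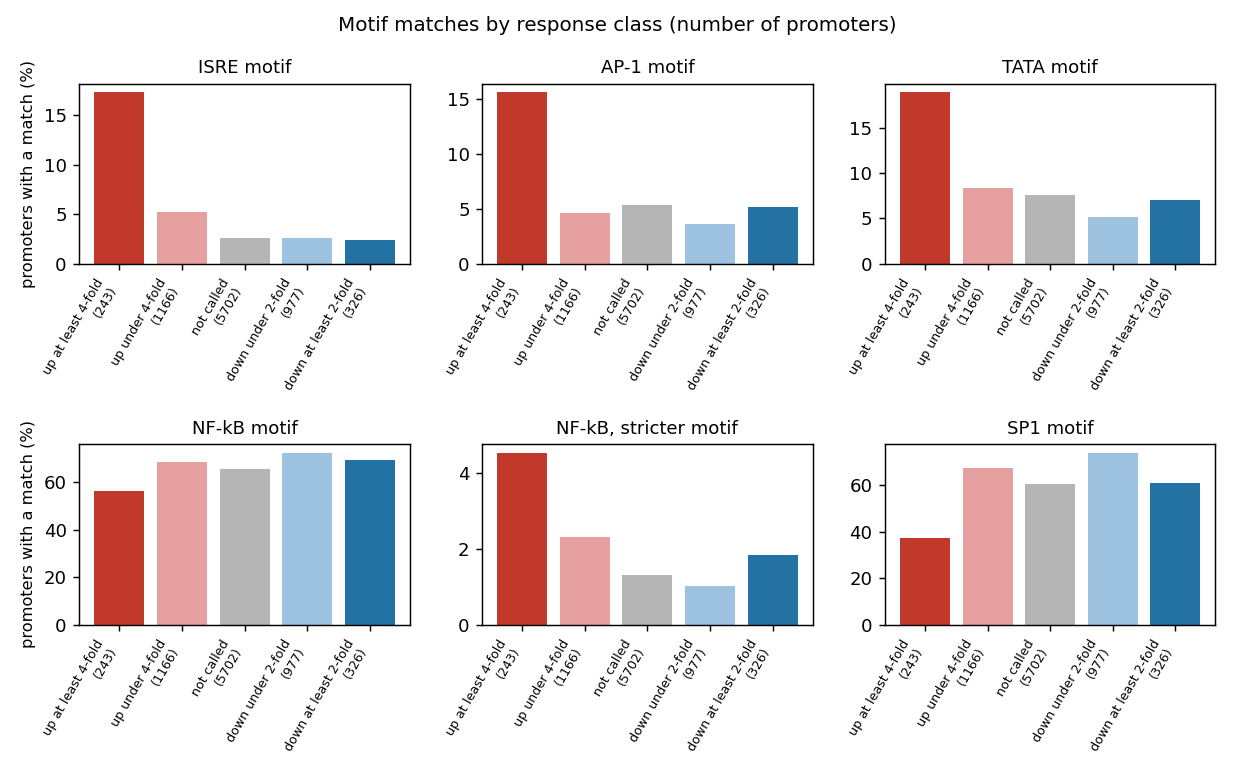
Percent of promoters that hold a motif match (bars from 0, a scale for each motif), by response to LPS in 5 classes from up at least 4-fold to down at least 2-fold, for 6 motifs. The ISRE bars fall from 17.3% in the strongest risers to 2.58% in genes not called, and the SP1 and loose NF-kB bars are lowest in the strongest risers.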

How the data were processed

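Messenger RNA of 8 libraries was counted per gene. The authors deposited 1 table of whole-number counts, not normalized. The submitters' processing notes list GRCm39 and DESeq2, with no role. For the aligner, the annotation, strand and shared reads, nothing is given in the sources used here. Of 55414 gene identifiers 52081 matched a symbol of GENCODE M21 (GRCm38), which also gave the order of genes; 3333 did not match, and no coordinates are given for counts. Promoters came from RefSeq on GRCm38.p6, and genes of chromosome 18 were left out of the runs of neighbours.

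Counts were tested with edgeR 4.0.16 in R 4.3.3, by the quasi-likelihood test with Benjamini-Hochberg adjustment over the 16304 genes kept by filterByExpr (minimum count 10, minimum total 15). All 8 libraries entered 1 fit with a mean per group after TMM scaling, so the spread is pooled over 4 groups of 2. A gene "rose" or "fell" at an adjusted p under 0.05, and the test of changes over 2-fold was glmTreat. SE is approximate, from the log2 fold change and its F statistic. Levels are CPM after TMM scaling; sums over markers use plain library totals. Where a group had no counts, a fold is a bound against 3 counts over the group; bounds and intervals cover counting error only. Between replicates, counts varied more than sampling alone gives (chi-square per degree of freedom 3.88 in control and 4.28 in LPS). The differences between replicates 1 and 2 correlated by 0.048 between the groups, which gives no sign that equal numbers pair samples. With 1 difference per group and genes of low count included, this value cannot exclude pairing. The alternatives were scaling by library size, DESeq2 1.42.0, other filters, the 4 libraries alone, a replicate block and leaving out each library. The scripts were tested on 1 set of simulated counts with 200 genes changed. There 71.7% of 2-fold and 87.9% of 4-fold changes were called. False calls numbered 13, which is 8.18% of calls at an adjusted p under 0.05.

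The comparison, the 39 lists (1289 symbols, 1279 in the table, 1134 tested; 491 rose and 232 fell) and the genes were chosen with earlier results of these data known, and the stricter NF-kB motif after seeing these data. Members of the lists are described by counts, the share called and nearly always the median, with no test of the list; the share over all genes is given at the start of the results and where a list lies near it. The naming rule took 12 genes whatever their values, the 10 largest rises and falls among genes of at least 5 CPM, the 5 largest gains and losses in CPM, and in each list up to 4 called members each way, with members not called or going against the list where these were 5 or fewer. Cell type markers were named by their values, and some genes of the rule are left out. Genes named outside it, chosen after their values were seen, were Adora2a, B2m, Bcl2l1, Birc3, C3, Ccl2, Ccl20, Ccl22, Ccl4, Cd80, Cflar, Ch25h, Csf1, Csf1r, Cxcl1, Cxcl11, Cxcl3, Dusp1, Ets2, Fpr1, Fpr2, H2-K1, Hif1a, Ier3, Il18, Il1rn, Irak2, Irf1, Irf3, Irgm1, Isg15, Klf4, Lbp, Ldha, Ly86, Mmp3, Mertk, Mmp9, Myd88, Nfkb2, Nfkbib, Nfkbid, Nfkbie, Osm, Pim1, Pkm, Rel, Rela, Relb, Sarm1, Sod2, Spi1, Tfec, Tgfb1, Ticam1, Tirap, Tlr2, Tlr3, Tlr5, Zbp1 and the genes of the runs of neighbours.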

Additional observations from a re-analysis of the deposited data

Results flagged for a closer look

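The LPS response of 9 of the 11 tested genes fixed for this purpose differed between cells given DMSO and cells given disulfiram. This was called by the interaction term of the same fit, which also called 19.7% of all genes tested (3217 genes). The 9 all rose with LPS alone and were chosen with earlier results of these data known. Their share therefore cannot be compared evenly with that of all genes. Each value is the log2 fold change of LPS with the drug minus that without it, with Benjamini-Hochberg adjusted p from edgeR. Such a value does not tell a changed level before LPS from a changed level after it. For Tnf it was -2.29 (SE 0.15, adjusted p = 6.45e-08), from 4.49 without the drug to 2.19 with it. For Ptgs2 it was -4.86 (adjusted p = 6.77e-12), from 6.54 to 1.68. For Cxcl10 it was -4.15 (adjusted p = 9.32e-10), from 6.31 to 2.16, and for Ifit1 -4.89 (adjusted p = 2.18e-10), from 5.29 to 0.40. For Il10, which had only 3 and 6 counts in control, it was -4.14 (adjusted p = 1.41e-05), from 4.65 to 0.51. Il1b (-6.19, adjusted p = 1.09e-05), Il6 (-5.84, adjusted p = 0.000227) and Nos2 (-6.24, adjusted p = 3.37e-05) had few counts in control, and their responses of 9.18, 8.74 and 8.74 became 3.00, 2.90 and 2.49. The smallest of the 9 was that of Nfkbia, the inhibitor of NF-kB, at -0.80 (adjusted p = 0.000975), from 2.88 to 2.08. Tlr4 (0.19, adjusted p = 0.469) and Ly96 (-0.23, adjusted p = 0.657) did not pass. The same number of 9 was called when any 1 of the 8 libraries was left out.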

How the results depend on the processing

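A design with 2 libraries a side limits the precision, most of all for genes with few control counts. Leaving out 1 library in turn gave 1700 to 1774 genes up and 1429 to 1577 down (2485 and 2246 with all), 437 to 456 and 120 to 137 tested as over 2-fold (531 and 181), 436 to 453 list members up and 176 to 188 down (491 and 232), and 9 genes in each case with an altered response under the drug. Scaling by library size alone gave 1614 genes up and 3774 down, 331 list members down and 440 up. DESeq2 gave 98 genes down by more than 2-fold. The cause was not tested in each case, except that a fit without 1 library holds fewer samples. A replicate block gave 2490 genes up and 2244 down, 529 and 177 of them by more than 2-fold, and the correlation of replicate differences between the groups (0.048 over 16304 genes) gives no sign that equal numbers pair samples. Of 3129 values of 314 named genes under the alternatives, 3014 kept their direction and side of the threshold, 114 lost the call, 1 gained it (Aim2, by library size) and 0 reversed; 33 named genes lost the call without 1 library. The share of promoters with an NF-kB match in genes up at least 4-fold was 56.4% with the loose motif and 4.53% with the stricter one, chosen after seeing the data.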
